A study of Mus musculus with 23 samples.

Results

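The 9 genes described here encode proteins that remodel high density lipoprotein (HDL), move sterol out of or into cells, or control plasma lipases: Lcat, Pltp, Abca1, Abcg1, Scarb1, Lipc, Lipg, Angptl4 and Angptl8. They were taken by symbol, and all 9 were present in both deposited tables, out of 26522 genes listed in either table. Bulk liver RNA was sequenced from 23 mouse samples in 4 groups. The groups were 5 control males (replicates 1, 2, 3, 4 and 6), 6 LKO males, 6 control females and 6 LKO females. The genotypes are labelled B100-Control and B100-LKO, so the controls carry whatever B100 denotes as well. All samples came from livers of WD-fed mice after 16 weeks on that diet, collected in the fed state. LKO refers to hepatic ablation of Cpt1a, which encodes the enzyme that passes long-chain fatty acids into mitochondria, and the title of the series names plasma cholesterol as its outcome. The sources used here do not spell out B100 or WD, the age of the mice or the driver of the deletion.

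HDL takes up cholesterol from cells through the transporters ABCA1 and ABCG1, LCAT esterifies it on the particle, and PLTP transfers phospholipid onto HDL. Hepatic lipase (Lipc) and endothelial lipase (Lipg) hydrolyse HDL lipids, and SR-BI (Scarb1) takes up cholesteryl ester into hepatocytes. ANGPTL4 and ANGPTL8 restrain lipoprotein lipase, with ANGPTL8 induced by feeding and ANGPTL4 by fatty acids and fasting.

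The stretches before the transcription starts of 3 members are shown because Abca1 was the only member whose window held a searched nuclear receptor motif, and Lipc and Pltp were the pair of members that varied most oppositely between livers. RefSeq windows on GRCm38.p6 were found for 5 of the 9 members, and each was read over the 250 bases before the start. Each sequence runs 5′ to 3′ on the minus strand, where its gene lies, and capitals mark a DR4 motif, the direct repeat that LXR with RXR binds.
Abca1, chr4:53159896-53160145: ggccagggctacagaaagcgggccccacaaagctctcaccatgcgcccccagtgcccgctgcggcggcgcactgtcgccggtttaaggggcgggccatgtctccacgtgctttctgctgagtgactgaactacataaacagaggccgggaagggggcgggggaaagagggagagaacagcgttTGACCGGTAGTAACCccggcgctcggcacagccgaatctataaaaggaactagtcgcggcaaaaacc
Pltp, chr2:164857709-164857958: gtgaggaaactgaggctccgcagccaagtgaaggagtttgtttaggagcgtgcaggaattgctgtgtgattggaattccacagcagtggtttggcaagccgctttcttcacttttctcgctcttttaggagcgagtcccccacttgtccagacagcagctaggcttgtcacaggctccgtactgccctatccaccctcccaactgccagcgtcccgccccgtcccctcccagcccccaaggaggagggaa
Lipc, chr9:70934809-70935058: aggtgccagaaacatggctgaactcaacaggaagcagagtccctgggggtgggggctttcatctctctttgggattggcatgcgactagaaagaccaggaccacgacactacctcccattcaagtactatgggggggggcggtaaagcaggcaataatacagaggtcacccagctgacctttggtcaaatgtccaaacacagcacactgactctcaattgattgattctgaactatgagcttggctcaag
The Lipc window belongs to the inner of 2 RefSeq starts and lies within an intron of Lipc in GENCODE M21. On both strands, the DR4 searched (GGTNA, 5 bases of any kind, then GGTCA) was present in 0.177% of 32851 such windows in the genome. Among the 5 members searched, Abca1 alone held it, from 67 to 53 bases before the start. A DR1 (AGGNCA, 1 base of any kind, then AGGNCA), an IR1 (GGTCA, 1 base of any kind, then TGACC) and an SREBP site (TCACNCCAC) were in 0.338%, 0.0335% and 1.05% of windows, and in none of the 6 windows of the 5 members. A match describes the letters of the window, and no binding was measured.

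Total counts ran from 14224665 to 19626662 per library, and 18232 to 20343 genes had a count. Control male 4 had the fewest of both. Cpt1a was lower in every LKO liver than in any control liver of the same sex, with 357 ± 50.4 CPM (SD, n = 5) in control males, 63.1 ± 20.3 (SD, n = 6) in LKO males, 388 ± 59.2 (SD, n = 6) in control females and 75.9 ± 8.88 (SD, n = 6) in LKO females. Here CPM is the count scaled by library size and TMM factors over all 23 libraries together. All 8 hepatocyte markers looked at, among them Alb and Hnf4a, were present in every group. The RNA came from whole tissue, so fewer cells of a type and less RNA per cell cannot be told apart. Nothing in the labels says more of the replicates than their numbers, so p-values measure the spread between these samples. Sex coincides with the deposited table.

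None of the 9 members was called for genotype in either sex at an adjusted p under 0.05 (edgeR quasi-likelihood test, Benjamini-Hochberg over all genes tested). The background was 0.00724% of 13805 genes in males, which is Cpt1a alone, and 1.42% of 13684 genes in females. At an unadjusted p under 0.05 there was 1 member in males, against 12.5% of all genes, and 1 in females, against 15.6%. DESeq2 called 1.27% of genes in males with none of the members, and 3.64% in females with 1 member, Lipc. The median log2 difference of the members, LKO minus control, was −0.18 in males and 0.01 in females, beside 0.01 over all genes tested in each sex. Each member's ranges in LKO and control livers overlapped in both sexes, while 1.74% of all genes in males and 1.58% in females had ranges that did not overlap. Values for each gene follow by role.

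**Figure D1:**
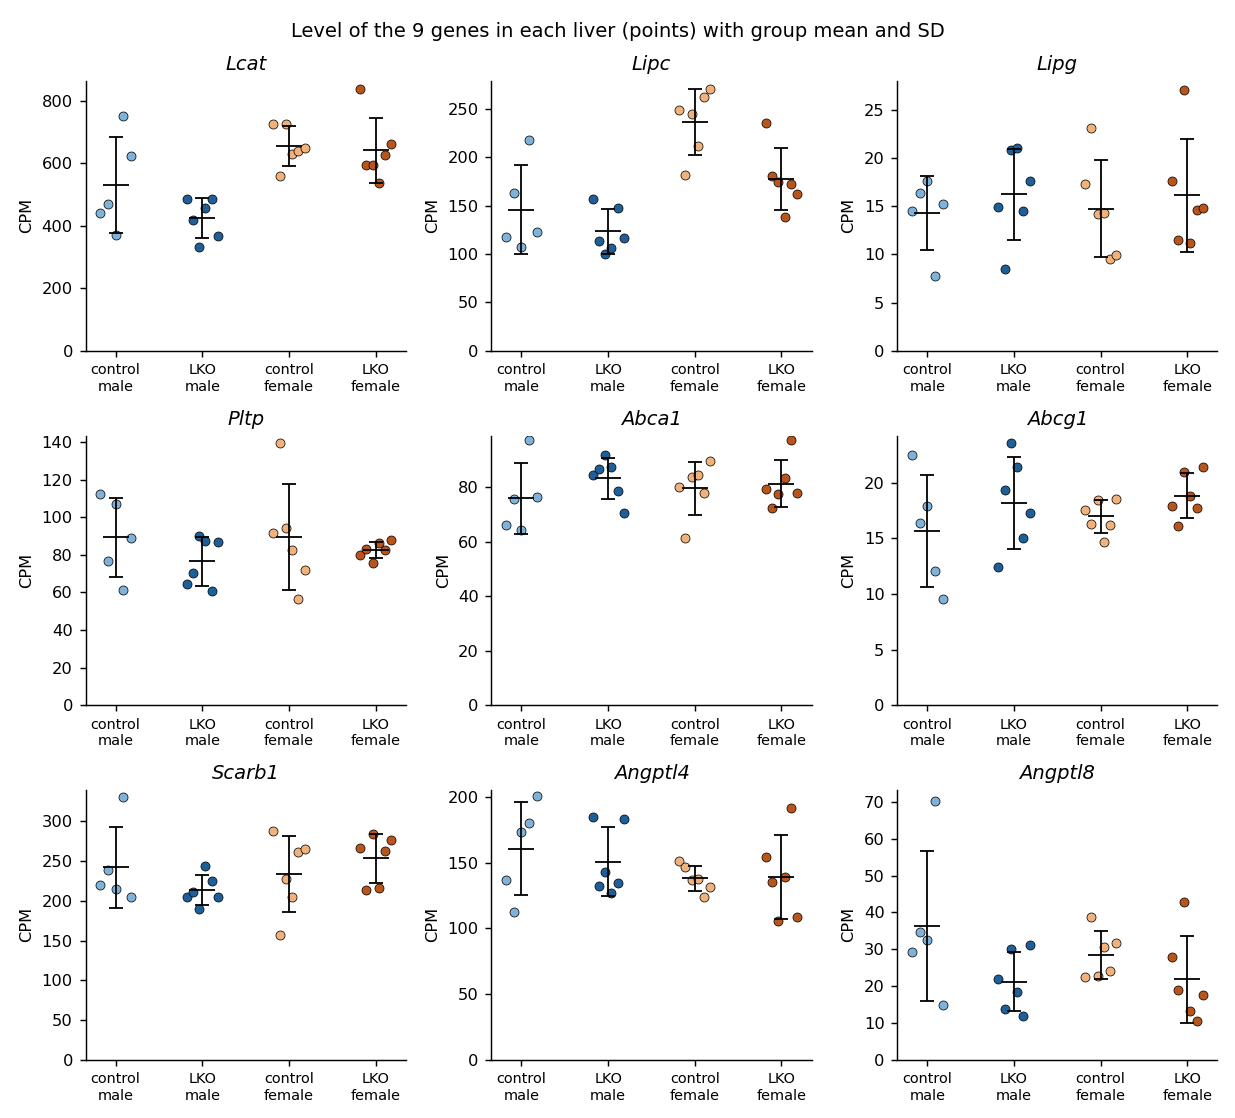
Level of each gene (vertical axes, CPM, from 0) in the 23 livers by group (horizontal axes). Points are livers, the long bars the group means and the whiskers 1 SD. Control and LKO points of the same sex overlap in all 9 panels, Lipc lies higher in females, and the highest Scarb1 point, 331.0 CPM, is control male 4.

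Positions are those of the deposited tables, whose build is mm39 per the submitters' processing notes. Lcat (chr8:106666183-106670014, minus strand), which encodes the enzyme that makes cholesteryl ester on HDL, was the most abundant member per length, at 418 ± 99.6 FPKM (SD over 23 livers). In control males it stood at 442.9, 469.4, 372.0, 752.7 and 623.8 CPM in replicates 1, 2, 3, 4 and 6. LKO males ran from 331.9 to 486.9 CPM with a median of 438.7. The LKO males lay below the mean of the control males in 6 of 6 samples, and 2 of them (331.9 and 368.8 CPM) were below the lowest control. LKO minus control was −0.32 (SE 0.17, edgeR adjusted p = 0.454), and −0.17 without control male 4. In females the lowest, median and highest values were 559.0, 645.4 and 727.6 CPM in controls and 538.0, 610.8 and 838.6 in LKO livers. The LKO females reached further in both directions than the controls, with a log2 difference of −0.03 (SE 0.11, edgeR adjusted p = 0.932) and a 95% interval from −16.6% to 15.1%.

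Pltp (chr2:164681438-164699631, minus strand), which encodes the plasma phospholipid transfer protein, stood at 112.3, 76.7, 107.0, 61.3 and 89.1 CPM in the control males and at 60.7 to 89.9 CPM, median 78.5, in LKO males. All 6 LKO males lay below the 2 highest control males. Their log2 difference was −0.23 (SE 0.16, edgeR adjusted p = 0.604), ranging from −0.34 without control male 4 to −0.13 without control male 1. In females, controls ran from 56.7 to 139.3 CPM with a median of 87.2, and LKO females from 75.7 to 87.9 with a median of 82.8. The LKO females sat within the spread of the controls, and their SD was 4.36 CPM against 28.0 in control females. The log2 difference in females was −0.12 (SE 0.16, edgeR adjusted p = 0.781). It was 0.05 without control female 2, the sample at 139.3 CPM. Pltp overlaps the end of Ctsa, a lysosomal protease gene on the other strand with 2097 to 6152 counts per liver, so shared reads cannot be told apart unless the counting used the strand.

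Abca1 (chr4:53030787-53159895, minus strand) encodes the transporter that loads lipid onto apolipoprotein A-I. Control males were at 66.2, 75.7, 64.1, 97.2 and 76.4 CPM, and LKO males ran from 70.7 to 91.7 with a median of 85.5. LKO males were above the control mean in 5 of 6 samples, below the level of control male 4. This gave a log2 difference of 0.13 (SE 0.11, edgeR adjusted p = 0.661), and 0.23 without control male 4. In females the lowest, median and highest values were 61.5, 82.0 and 89.8 CPM in controls and 72.5, 78.5 and 97.2 in LKO livers. The female difference of 0.03 (SE 0.09, edgeR adjusted p = 0.925) had a 95% interval from −11.4% to 17.3%.

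Abcg1 (chr17:31276649-31336962, plus strand) encodes the transporter that passes sterol to formed HDL particles and is known for its activity in macrophages. It was the least abundant member per length, at 2.38 ± 0.46 FPKM (SD over 23 livers). Control males were at 22.5, 16.4, 17.9, 12.1 and 9.54 CPM, and LKO males ran from 12.4 to 23.6 with a median of 18.3. The spread within each male group was wider than the gap between them, with a log2 difference of 0.21 (SE 0.21, edgeR adjusted p = 0.746). Female controls ran from 14.7 to 18.6 CPM with a median of 16.95, and LKO females from 16.2 to 21.5 with a median of 18.4. LKO females were above the control mean in 5 of 6 samples, by a fitted log2 difference of 0.15 (SE 0.09, edgeR adjusted p = 0.454) and a 95% interval from −2.76% to 26.3%.

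Scarb1 (chr5:125354151-125418158, minus strand), the HDL receptor gene, stood at 219.4, 239.5, 215.6, 331.0 and 204.9 CPM in control males, with replicate 4 far above the other 4. LKO males ran from 190.3 to 243.9 CPM with a median of 208.4. The fitted male difference was −0.18 (SE 0.12, edgeR adjusted p = 0.560), and −0.05 without control male 4. In females the controls ran from 157.0 to 288.5 CPM with a median of 244.9, and LKO females from 214.2 to 284.7 with a median of 264.7. The female difference was 0.11 (SE 0.13, edgeR adjusted p = 0.750), and 0.02 without control female 2. The genotype by sex term of 0.30 (SE 0.19, edgeR adjusted p = 0.524) did not pass the test.

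Lipc (chr9:70705410-70859508, minus strand), the hepatic lipase gene, had the lowest p of the members in females. Control females ran from 181.1 to 269.9 CPM with a median of 246.9, and LKO females from 138.1 to 235.3 with a median of 173.8. All 6 LKO females lay below the control mean, and 5 of them were at or below 180.9 CPM, the remaining one (replicate 1) reaching into the control range. The log2 difference was −0.42 (SE 0.13, unadjusted p = 0.00506), a level 25.1% lower with a 95% interval from −37.9% to −9.62%. With edgeR the adjusted p was 0.121, so the gene was not called. It was called by DESeq2 (adjusted p = 0.0455) and by edgeR without LKO female 1 (log2 difference −0.51, adjusted p = 0.0356). The authors' deposited table gives Lipc in females the same values as DESeq2 here, a log2 fold change of −0.42 with an adjusted p of 0.0455. Both rest on the same counts, so this is not a separate result. Over its alternatives, the adjusted p of Lipc in females ran from 0.0356 to 0.247.

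In males, Lipc stood at 117.9, 163.5, 107.3, 218.2 and 122.7 CPM in controls, and ran from 99.7 to 156.8 with a median of 115.2 in LKO livers. In males 4 of the 6 LKO livers lay within the range of the controls, and 2 (99.7 and 105.8 CPM) were below it. Their log2 difference was −0.24 (SE 0.18, edgeR adjusted p = 0.620), and −0.06 without control male 4. Averaged over the sexes, the difference was −0.33 (SE 0.11, unadjusted p = 0.00867, edgeR adjusted p = 0.184), in a comparison where 0.545% of 14503 genes and none of the members were called. Without control male 4 the averaged difference was −0.24 (edgeR adjusted p = 0.341).

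Lipg (chr18:75072393-75094334, minus strand), the endothelial lipase gene, had few reads, with 97 to 431 counts per liver. Control males were at 14.5, 16.4, 17.6, 7.80 and 15.2 CPM and LKO males at 8.49 to 21.04, median 16.3. Control females ran from 9.58 to 23.1 CPM with a median of 14.3 and LKO females from 11.2 to 27.1 with a median of 14.7. Levels of low and high livers differed more than 2-fold inside each group, and the groups overlapped. Fitted log2 differences were 0.17 (SE 0.23, edgeR adjusted p = 0.818) in males, 0.02 without control male 4, and 0.12 (SE 0.24, edgeR adjusted p = 0.860) in females. The 95% interval in females ran from −23.3% to 54.8%, so a change within that interval could not be told from none.

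Angptl8 (chr9:21746806-21748643, plus strand), which encodes a feeding-induced protein that restrains lipoprotein lipase, had the lowest p of the members in males. Control males were at 29.3, 34.8, 32.5, 70.3 and 14.8 CPM, and LKO males ran from 12.01 to 31.15 with a median of 20.2. All 6 LKO males lay below the control mean, and 2 of them were below the lowest control. In males the log2 difference was −0.77 (SE 0.34, unadjusted p = 0.0414, edgeR adjusted p = 0.382), and −0.39 without control male 4. Among females, controls ran from 22.4 to 38.7 CPM with a median of 27.4, and LKO females from 10.5 to 42.8 with a median of 18.3. LKO females were below the control mean in 5 of 6 samples, while LKO female 3 was the highest female. The log2 difference was −0.38 (SE 0.28, edgeR adjusted p = 0.558), ranging from −0.69 without LKO female 3 (edgeR adjusted p = 0.184) to −0.24 without LKO female 5 (edgeR adjusted p = 0.716). The average over the sexes was −0.57 (SE 0.24, unadjusted p = 0.0225, edgeR adjusted p = 0.258). Angptl8 lies inside Dock6, which is on the other strand and had 323 to 656 counts per liver, a number near that of Angptl8 itself. Here too, shared reads cannot be told apart unless the counting used the strand. For Dock6, LKO minus control was −0.05 (SE 0.11, edgeR adjusted p = 0.893) in males and −0.28 (SE 0.096, edgeR adjusted p = 0.159) in females.

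Angptl4 (chr17:33992724-34000804, minus strand), which encodes an inhibitor of lipoprotein lipase and is a classical PPAR target, showed the smallest fitted difference of the 9 within each sex. Control males were at 136.6, 112.5, 173.6, 180.3 and 200.7 CPM, and LKO males ran from 126.7 to 185.1 with a median of 138.7. Control females ran from 124.3 to 151.1 CPM with a median of 137.6, and LKO females from 105.3 to 191.8 with a median of 137.4. The medians of the female groups nearly coincided, and LKO females spread both above and below all controls. The log2 difference was −0.09 (SE 0.15, edgeR adjusted p = 0.865) in males and 0.01 (SE 0.13, edgeR adjusted p = 0.984) in females, the latter with a 95% interval from −16.5% to 21.5%.

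The difference between the sexes in the genotype effect was tested by an interaction term, by which edgeR called 0% of 14503 genes (12.9% at an unadjusted p under 0.05, and 0.721% by DESeq2). Adjusted p-values of the 9 members ran from 0.524 to 0.966.

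**Figure D2:**
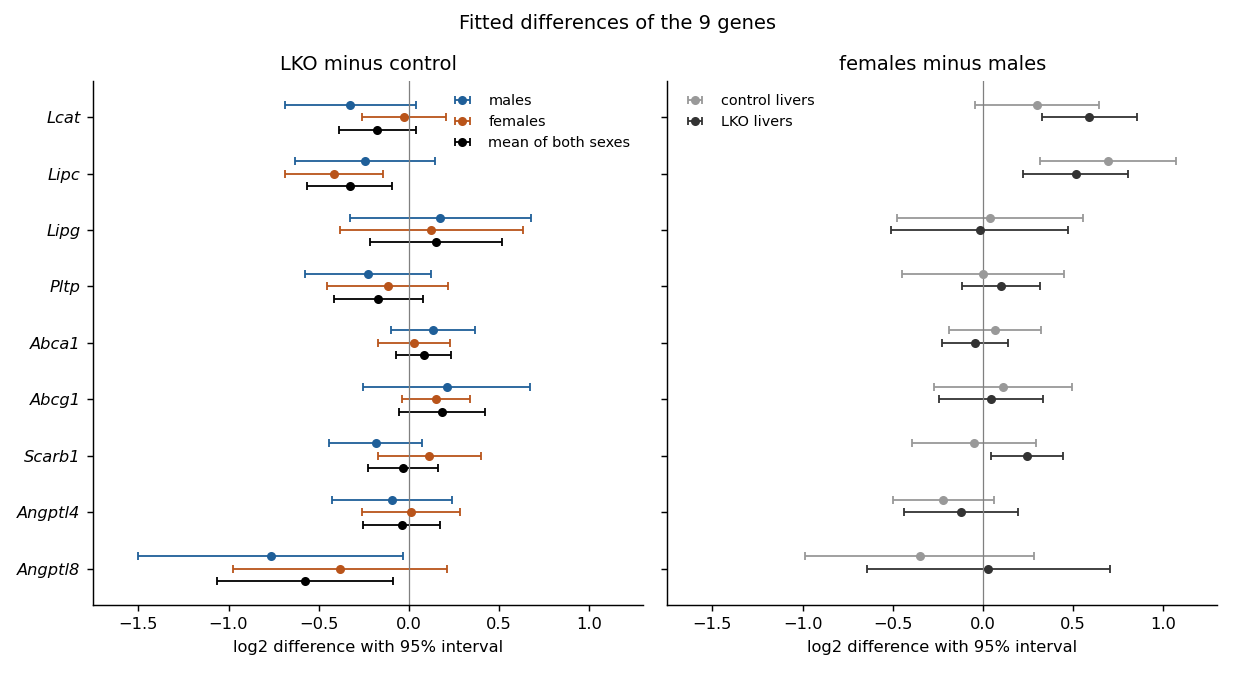
Fitted log2 differences of the 9 genes (horizontal axes) with 95% intervals (whiskers), for LKO minus control (left) and females minus males (right). On the left, the intervals that leave out 0 are those of Lipc in females and in the mean of both sexes and of Angptl8 in males and in the mean, none with an adjusted p under 0.05. On the right they are both Lipc intervals and those of Lcat and Scarb1 in LKO livers, with Scarb1 not called.

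Per length, the order of the members over the 23 livers was Lcat, then Lipc at 79.2 ± 25.0 FPKM (SD), Angptl4 at 41.1 ± 7.61, Pltp at 32.6 ± 7.003, Angptl8 at 30.5 ± 15.1, Scarb1 at 27.5 ± 4.61, Abca1 at 7.67 ± 0.91, Lipg at 3.24 ± 0.98 and Abcg1. Lcat stood above Lipc, Scarb1 above Abca1, and Abca1 above Lipg in all 4 groups without overlap. Ranges of Pltp and Angptl8, of Angptl8 and Scarb1, and of Lipg and Abcg1 overlapped in all 4 groups. Lipc and Angptl4 overlapped in males and were apart in females. Angptl4 and Pltp overlapped in every group except the LKO males.

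Lipc was higher in females in both genotypes, and Lcat was higher in females among LKO livers. In controls, Lipc was higher in females by a log2 difference of 0.69 (SE 0.17, edgeR adjusted p = 0.0159), 61.8% higher, and all 6 females lay above the male mean. The background in that comparison was 18% of 13699 genes, or 8.8% counting only genes higher in females, and Lipc was the 1 member called. In LKO livers 2 members were called, both higher in females, against 12.4% of 13778 genes and 5.89% in that direction, in a comparison chosen after the data were seen. Lcat was higher in LKO females than in LKO males by 0.59 (SE 0.12, edgeR adjusted p = 0.00575), and its ranges did not overlap, as for 6.15% of genes. Lipc was higher in LKO females by 0.52 (SE 0.14, edgeR adjusted p = 0.0224), with overlapping ranges. In controls, the difference of Lcat was 0.30 (SE 0.16, edgeR adjusted p = 0.209), and it was called without control male 4 (0.46, edgeR adjusted p = 0.0283). That the sex difference of Lcat differs between the genotypes was not shown, since the interaction term of 0.30 (SE 0.21, edgeR adjusted p = 0.572) did not pass. Angptl4 was at −0.22 in controls (SE 0.13, edgeR adjusted p = 0.259) and was called lower in females without control male 2 (−0.33, edgeR adjusted p = 0.0456). Among the other members, Scarb1 was at 0.24 in LKO livers (SE 0.09, edgeR adjusted p = 0.108).

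Lists of other genes of these pathways were looked at beside the members, each with the members it holds. Of 21 HDL apolipoproteins and HDL-bound proteins tested in males, 20 had a log2 difference below 0, with a median of −0.23, and none was called. Over all genes in males 47.9% were below 0, and without control male 4 the number was 17. Apoa1, which encodes the main protein of HDL, had the lowest p of the list's other genes in males, at 12570 ± 2500 CPM (SD, n = 5) in controls and 9102 ± 1745 (SD, n = 6) in LKO males. Its log2 difference was −0.47 (SE 0.16, edgeR adjusted p = 0.284). In females 13 of the 21 were below 0 with a median of −0.05, beside 48.9% of all genes. The 1 gene called was Apoa4, an apolipoprotein of chylomicrons and HDL, which rose from 448 ± 96.3 CPM to 1055 ± 213 CPM (SD, n = 6 each). Its log2 difference was 1.23 (SE 0.17, edgeR adjusted p = 0.0029), and it was not called when all 23 samples shared 1 fit (edgeR adjusted p = 0.0575).

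No gene was called by edgeR among 16 sterol efflux genes and LXR targets in either sex. At an unadjusted p under 0.05 there were 0 in males and 1 in females, beside 12.5% and 15.6% of all genes tested. Medians of the 16 were 0.10 in males and −0.05 in females. Nr1h3, which encodes LXR-alpha, had the lowest p in males at −0.17 (SE 0.08, edgeR adjusted p = 0.411), and Scd1, a desaturase gene, in females at −0.67 (SE 0.28, edgeR adjusted p = 0.257). Among 21 genes of HDL lipid uptake and sterol handling inside the cell, edgeR called none in either sex. An unadjusted p under 0.05 was found for 3 in males and 4 in females, beside the same 12.5% and 15.6% of all genes. In females 1 was called higher by DESeq2, and without control female 3 edgeR called 1 higher and 1 lower. The lowest p in males was that of Pdzk1ip1, at −1.01 (SE 0.29, edgeR adjusted p = 0.266).

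Of 18 secreted lipases and their controllers, Lpl was called in females and in the average over the sexes. Lpl encodes lipoprotein lipase, the enzyme that ANGPTL4 and ANGPTL8 restrain. In females it rose from 33.2 ± 11.3 CPM to 67.7 ± 5.44 CPM (SD, n = 6 each), a log2 difference of 1.03 (SE 0.18, edgeR adjusted p = 0.0134). In males Lpl was at 44.3 ± 18.7 CPM (SD, n = 5) in controls and 63.3 ± 17.9 (SD, n = 6) in LKO livers, and was not called. Over the alternatives its male log2 difference ran from 0.35 to 0.71. The average was 0.77 (SE 0.17, edgeR adjusted p = 0.0354), called in 11 of 23 fits that left out 1 sample. The interaction term of Lpl was not called. The list's medians were −0.09 in males and −0.08 in females. Lpl is also one of 8 markers of lipid-associated macrophages. In females 6 of them were called higher, beside 1.42% of all genes called in either direction. In males 0 of the 8 markers were called. Their summed level was 93.6 to 131.9 CPM in control females and 173 to 258 in LKO females, with 103.9 to 399.5 in control males and 124.2 to 459.5 in LKO males. The part of these cells in the Lpl result was not tested. Apoc3, whose product inhibits lipoprotein lipase, had the lowest p in males at −0.29 (SE 0.13, edgeR adjusted p = 0.367).

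Angptl4 was also set beside the PPAR targets to which it belongs. In females 18 of the 19 listed were tested, all above 0, and 2 were called. Their median was 0.51 beside 0.01 for all genes, of which 48.9% were below 0. The one left out by the filter on low counts, Cidea, was at 0.82 ± 0.89 CPM in control and 0.13 ± 0.11 CPM in LKO females (SD, n = 6 each), so with no filter 18 were above 0 and 1 below. Angptl4 itself was at 0.01. The called genes were Cidec, which encodes a lipid droplet protein, from 11.5 ± 5.86 to 46.5 ± 17.4 CPM (SD, n = 6 each; log2 difference 2.01, SE 0.32, edgeR adjusted p = 0.00691, and 0.066 when all 23 samples shared 1 fit), and Acot2, a mitochondrial acyl-CoA thioesterase gene. Acot2 was at 1.40 (SE 0.31, edgeR adjusted p = 0.0384) and was not called in 8 of 12 fits that left out 1 sample. In males 11 of 19 were above 0 with a median of 0.08, and none was called. Fabp1, a fatty acid binding protein gene, had the lowest p there at −0.30 (SE 0.12, edgeR adjusted p = 0.324).

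Angptl8 was set beside insulin and SREBP1c targets, in a list of 19 that counts Angptl8 itself. In females 18 of 19 were below 0, beside 48.9% of all genes, with a median of −0.47, and 1 was called. That was Acss2, an acetyl-CoA synthetase gene, at 183 ± 161 CPM in control and 58.5 ± 13.3 CPM in LKO females (SD, n = 6 each). Its log2 difference was −1.65 (SE 0.38, edgeR adjusted p = 0.0487), and it was not called in 9 of 12 fits that left out 1 sample. In males 9 of 19 were below 0, beside 47.9% of all genes, with a median of 0.0029, and none was called. Elovl6, a fatty acid elongase gene, had the lowest p in males at 0.68 (SE 0.32, edgeR adjusted p = 0.404).

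Some of the members varied together or inversely between livers of the same group. Log2 levels were centred on the mean of each group and correlated over the 23 livers for all 36 pairs of members, with permutation within groups and Benjamini-Hochberg adjustment over the pairs. Lipc and Pltp were inversely related, with Pearson r = −0.77 (permutation p = 2e-05, adjusted p = 0.00072) and Spearman rho = −0.78 (permutation p = 0.00011). Livers high in Lipc were low in Pltp within males (r = −0.93, n = 11) and within females (r = −0.59, n = 12). Without the 2 livers farthest from the median of Lipc, r was −0.77, and without control male 4 it was −0.72. A further 4 pairs had an adjusted permutation p under 0.05, so 5 of 36 in all, none with Abca1, Abcg1, Angptl4 or Angptl8. The share of other gene pairs that would pass was not worked out, so this count does not set the members apart.

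Lcat and Lipc varied together (r = 0.76, permutation p = 0.00094, adjusted p = 0.0169, rho = 0.69 with permutation p = 0.00279), with r = 0.62 without the 2 farthest livers, 0.74 in males and 0.81 in females. Lipc and Scarb1 did likewise (r = 0.65, permutation p = 0.0018, adjusted p = 0.0216, rho = 0.60 with permutation p = 0.0042), with r = 0.55 without the 2 farthest livers, 0.70 in males and 0.67 in females. Lipg and Pltp were related in the same direction (r = 0.62, permutation p = 0.00258, adjusted p = 0.0232, rho = 0.60 with permutation p = 0.00545), with r = 0.57 without the 2 farthest livers, 0.67 in males and 0.57 in females. For Lcat and Scarb1, r was 0.57 (permutation p = 0.00433, adjusted p = 0.0312, rho = 0.53 with permutation p = 0.0106), and 0.42 without the 2 farthest livers, with 0.65 in males and 0.56 in females. Lcat, Lipc and Scarb1 were thus positively related to each other. Without control male 4, r was 0.67 for Lcat and Lipc, 0.54 for Lipc and Scarb1 and 0.44 for Lcat and Scarb1. For Lipg and Pltp it was 0.54. The permutation p-values above include that liver.

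**Figure D3:**
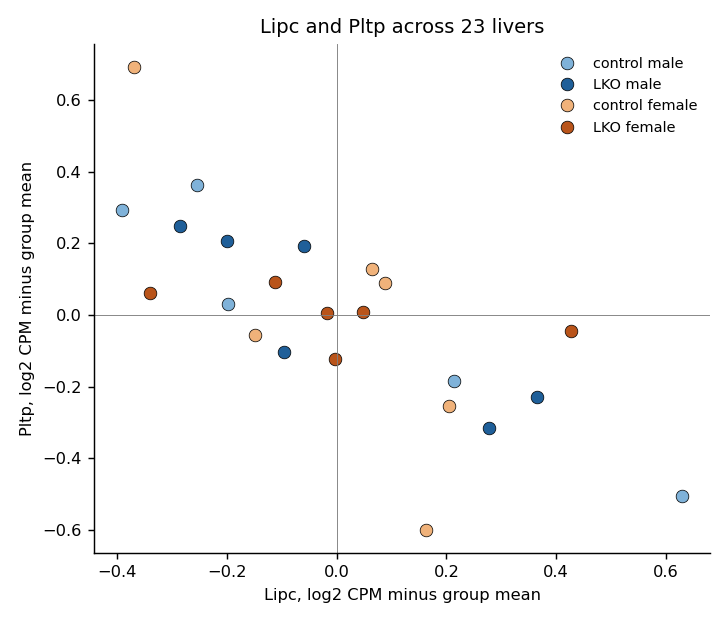
Lipc (horizontal axis) against Pltp (vertical axis), each as log2 CPM minus the mean of its group, for 23 livers coloured by group. Points fall from the upper left to the lower right (r = −0.77), with control male 4 at the lower right end and control female 2 at the upper left.

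Levels of several members moved with markers of cell types between livers. Over 72 pairs of a member and a marker sum, 11 had an adjusted permutation p under 0.05. How many other genes relate to these sums as closely was not worked out, so this count does not set the members apart. Lcat was low where the cholangiocyte markers were high (r = −0.84, permutation p = 4e-05, adjusted p = 0.00288, rho = −0.84), and Lipc likewise (r = −0.74, permutation p = 0.00047, adjusted p = 0.00972, rho = −0.70). Pltp was high where they were high (r = 0.61, permutation p = 0.00054, adjusted p = 0.00972, rho = 0.64). Within males these values were −0.92, −0.84 and 0.85, and within females −0.63, −0.53 and 0.28. Without the 2 farthest livers they were −0.77, −0.64 and 0.51.

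Abcg1 was high where lipid-associated macrophage markers were high (r = 0.80, permutation p = 0.00183, adjusted p = 0.022, rho = 0.72, and 0.81 without the 2 farthest livers). Within males r was 0.88 and within females 0.14, and the difference between the sexes was not tested. Lcat was inversely related to the same sum (r = −0.79, permutation p = 0.00037, adjusted p = 0.00972, rho = −0.71, and −0.67 without the 2 farthest livers), with −0.88 in males and −0.49 in females. Abcg1 was low where hepatocyte markers were high (r = −0.70, permutation p = 0.00112, adjusted p = 0.0161, rho = −0.66), with −0.87 in males and −0.43 in females. The cholangiocyte and lipid-associated macrophage lists share Spp1, so their relations are not separate. Summed hepatocyte markers were 81740 to 94520 CPM in control females and 55980 to 86720 in LKO females, with 51300 to 76740 in control males and 49730 to 70310 in LKO males. The part of cell composition in the values of the members was not tested.

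**Figure D4:**
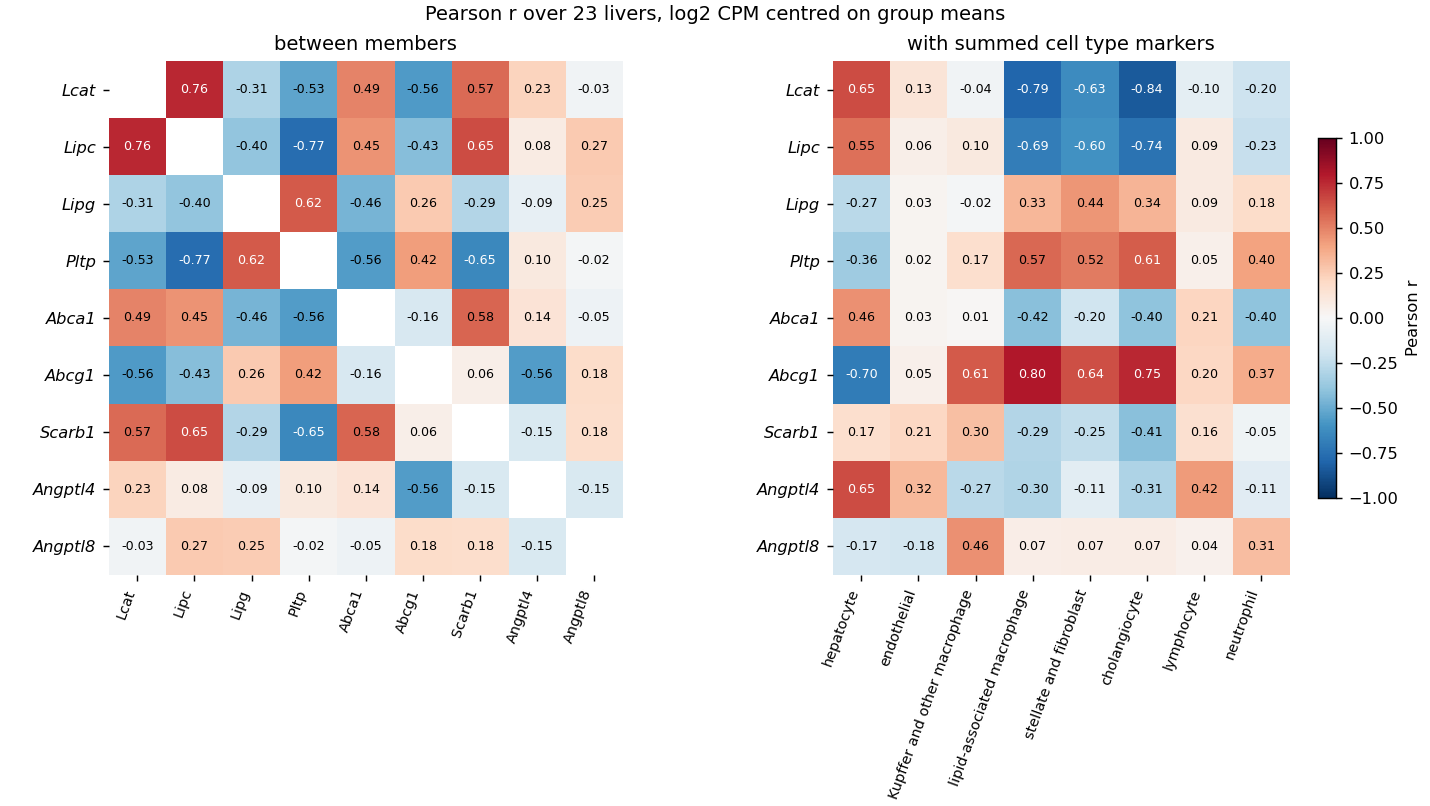
Pearson r over 23 livers (colour, and printed in each cell) between members (left) and between members (rows) and summed markers of 8 cell types (right). Lcat and Lipc share positive cells with Scarb1 and negative cells with Pltp, and Lcat and Abcg1 have opposite signs with the hepatocyte, lipid-associated macrophage and cholangiocyte sums.

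For likeness, log2 levels were centred on the mean of each sex, not of each group, so genotype differences stay in r. The genes most like each member were ranked over 10318 genes and 23 livers, as a description. For Lipc they were Klkb1, which encodes plasma prekallikrein (r = 0.94), and Scnn1a (r = 0.88). For Lcat they were Cib2 (r = 0.91) and Ahsg, which encodes the secreted liver protein fetuin-A (r = 0.89). For Abcg1 they were Tbxas1, the thromboxane synthase gene (r = 0.87), and Slc1a4 (r = 0.87). For Pltp they were Pdzk1ip1 (r = 0.83) and Neurl2 (r = 0.78). The genes most like Abca1 were Serpina3k (r = 0.78) and Tmem30a (r = 0.76), and those most like Scarb1 were Azgp1 (r = 0.76) and Dpcd (r = 0.76). Likeness was weaker for Lipg, with Plk2 (r = 0.73) and Polr2d (r = 0.72), for Angptl8, with Cnot9 (r = 0.73) and Cbx8 (r = 0.72), and for Angptl4, with Klhdc2 (r = 0.70) and Rnf138 (r = 0.68).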

How the data were processed

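Per the labels' protocols, poly-T beads isolated mRNA from total liver RNA, and libraries used random hexamers with dUTP. The submitters' processing notes name HISAT2 2.0.5 and mm39, the counter and its use of strand being not given in the sources used here. The authors deposited 1 table per sex (24434 genes in males, 24940 in females, 22852 in both) holding raw counts and FPKM for each sample, plus their own log2 fold change with its p-value, raw and adjusted, for every gene. FPKM, per the file headers, was used to compare levels between genes and in alternative tests of genotype within each sex. Sample columns left unmapped numbered 0.

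The counts were tested with edgeR 4.0.16 (R 4.3.3, filterByExpr, TMM, quasi-likelihood test at its defaults, Benjamini-Hochberg over all genes tested, threshold 0.05), one sex at a time, and all 23 samples with 4 group means for the interaction and average. Sex comparisons used control or LKO samples. Total counts per library were 14224665 to 19626662. The log2 level used for correlations adds 0.5 to CPM, with 100000 permutations within groups. No replicate pair agreed within sampling noise. The test was tried on simulated counts with log2 changes of 1 and 2 in either direction. Each run changed 200 genes, all with a mean of at least 50 counts. The test called 85 to 97% of the changes of 1, by comparison. These shares hold for that setting, and in males the real counts gave 1 called gene. False calls were 2.65 to 7.77% of calls, 7.77% in males. Changes as small as those of the members were not simulated. Alternatives were RLE or library size alone, other filters, DESeq2 1.42.0, limma 3.58.1 on log2(FPKM + 1) or log2(FPKM + 0.1), a replicate block, all 23 samples in one fit, and leaving out each sample. The LKO female against LKO male comparison was added after the data were seen.

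The members and lists were chosen with earlier results of these data known. The text names all members, Cpt1a, the genes of each list called outside the sex comparisons, the non-member of lowest p per list and sex (1 is not reported here), and the 2 genes most like each member among those with a mean of at least 50 counts. The promoter windows are RefSeq's, on GRCm38.p6, another build than the counts, and were matched by symbol.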

Additional observations from a re-analysis of the deposited data

Results flagged for a closer look

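Scarb1 in control male 4 stood at 331.0 CPM, far above the other 4 control males, by Dixon's test at 95%. It was the 1 such value among 36 groups of values looked at (9 genes in 4 groups), where chance alone marks about 1 in 20. The same liver had the highest Lcat, Lipc, Abca1 and Angptl8 and the lowest Lipg and Pltp of the control males, with the fewest counts of the 23 libraries. It also stood apart over all genes. A chi-square per degree of freedom, higher where a pair of libraries agrees less, was 84.17 to 121.22 for control male 4 with the other 4 control males. Pairs among those other control males ran from 11.63 to 42.47. The highest pair of the other groups was 78.41, for LKO females 1 and 6.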

How the results depend on the processing

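No alternative called a member for genotype in males, in the interaction or in the average. In females 1 member, Lipc, was called by DESeq2 and without LKO female 1, so leaving out each sample gave 0 to 1 members called. Counts of genes called moved more. In males the 1 gene became 2 with library size alone, 2 with no filter, 3 with at least 10 counts in every sample, 106 by DESeq2, 2 with a replicate block and 5 with all 23 samples, and 1 to 2 on leaving out each sample. In females the 194 genes became 554 by DESeq2, 334 with the replicate block, 94 with all 23 samples and 87 to 233 on leaving out each sample. In the interaction the 0 genes became 88 by DESeq2 and 0 to 17 on leaving out each sample, the 17 without control male 4. In the average the 79 genes became 320 by DESeq2, 46 with the replicate block and 30 to 206 on leaving out each sample. In controls by sex the 2466 genes became 991 with the replicate block, where members called fell from 1 to 0 (Lipc 0.70, edgeR adjusted p = 0.0783), and were 1766 to 2947, with 1 to 2 members, on leaving out each sample. In LKO livers by sex the 1708 genes were 1267 to 1893 on leaving out each sample, with 2 members throughout. The cause of these moves was not tested. Replicate numbers are shared by the groups, but correlations of deviations between samples of one number ran from −0.372 to 0.417 in males and −0.007 to 0.191 in females, and 1 of 5 male and 4 of 6 female numbers matched best with themselves, so the numbers were not taken as pairs. With the block, 1 gene of HDL lipid uptake and sterol handling was called higher and 2 lower in females.

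Differences near 0 changed sign without being called. In females these were Lcat (0.0070 with library size alone) and Angptl4 (−0.019 with the replicate block, −0.022 on log2(FPKM + 1) and −0.023 on log2(FPKM + 0.1)). In the average they were Scarb1 (0.021) and Angptl4 (0.0070), both with library size alone. In controls by sex they were Lipg (−0.0023 with library size alone) and Pltp (0.0076 with no filter, 0.10 with the replicate block), and in LKO livers by sex Angptl8 (−0.016 with library size alone, −0.031 with the replicate block). On leaving out each sample, the ranges that crossed 0 were as follows. In females, Pltp ran from −0.22 to 0.053, Lipg from −0.085 to 0.30, Lcat from −0.12 to 0.017, Abca1 from −0.036 to 0.069 and Angptl4 from −0.10 to 0.078. In the interaction, Abcg1 ran from −0.24 to 0.064, Lipg from −0.26 to 0.12 and Angptl4 from −0.011 to 0.20. In the average, Scarb1 ran from −0.079 to 0.034 and Angptl4 from −0.10 to 0.0050. In controls by sex, Angptl8 ran from −0.55 to 0.025, Scarb1 from −0.12 to 0.088, Pltp from −0.17 to 0.10, Abcg1 from −0.026 to 0.28 and Lipg from −0.14 to 0.14. In LKO livers by sex, Angptl8 ran from −0.27 to 0.18, Abcg1 from −0.039 to 0.12 and Lipg from −0.22 to 0.078. Lipg had 97 to 431 counts per liver and Abcg1 150 to 416.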
